A study of Homo sapiens with 21 samples.

Results

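Hyaluronan is a long sugar polymer of the extracellular matrix that is built at the cell surface, bound by receptors and matrix proteins, and cut into fragments that are degraded in lysosomes. The 8 genes described here act in that cycle: CEMIP, CEMIP2 (formerly TMEM2), HYAL1, HYAL2 and HYAL3 are linked to its breakdown, HAS2 and HAS3 make it, and CD44 is a cell-surface receptor for it. They were found by matching the listed symbols to Ensembl gene IDs, and all 8 of the 8 were among the 37637 features of the count table. CEMIP was chosen by its measured rise with the caffeine dose in these samples, so its changes are given as a description with no test. The other 7 genes were listed for their function, but with earlier results of these data known. Their tests are therefore not independent of these data.

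Poly(A)-selected RNA was sequenced from HepG2 cells, a line established from a human liver cancer, after 6 h in serum-free medium. The groups received caffeine, a methylxanthine that blocks adenosine receptors, at 0 (untreated), 0.01, 0.1, 1, 10, 100 or 1000 µM, with 3 libraries per dose and 21 in all. The control medium also lacked serum. All groups are of the same cell line, the series text calls the 3 libraries of a dose biological replicates, and no label ties them to separate cultures or days, so the p-values measure the spread between these libraries.

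The libraries held between 28043623 and 40827833 counts (median 32497612). Levels are given as CPM, a gene's counts scaled to a common library size after TMM scaling of the totals (TMM is edgeR's correction for differences in composition). Where a gene had no count in a library, up to 3 counts remain possible, equal to 0.0735 to 0.107 CPM, and such limits cover counting error only. The line's liver identity was visible in its hepatocyte markers, with 7 of 7 counted and a summed level of 20751 to 26588 CPM per library. Of the fibroblast and stellate markers, 5 of 6 had at most 9 counts in every library, and COL1A2 was at 0 throughout. The other, PDGFRB, was at 4.45 CPM in the controls and 8.59 CPM at 1000 µM, a rise of 0.95 on the log2 scale (edgeR adjusted p = 7.63e-07), and its part in the results was not tested. Among endothelial markers 3 of the 4 in the count table had at most 9 counts in every library, and LYVE1 had 1 to 25. The same limit held for 3 of 5 leukocyte and macrophage markers. The others were CD68, at 53.4 to 108 CPM per library, and CD14, at 0.444 to 1.54 CPM. At 1000 µM CD14 changed by -1.09 (edgeR adjusted p = 0.00274) and CD68 by -0.26 (edgeR adjusted p = 0.17). Their part in the results was not tested either.

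The libraries differed in the balance between long and short transcripts, and this moved with dose. A length index was computed as the mean deviation in log2 CPM of the longest genes (7849 exon bases or more) minus that of the shortest (up to 1391 bases). The 3 control libraries had the lowest indices of all 21, from -0.56 to -0.35, and the 3 libraries at 1000 µM the highest, from 0.25 to 0.58. The means of the doses between lay from -0.06 (100 µM) to 0.14 (10 µM). The index used exon lengths from GENCODE's basic transcripts, by which CEMIP (7385 bases) and CEMIP2 (6652 bases) lie below the cut of the longest genes. Over all transcripts their merged exons span 7621 and 9625 bases. Their changes are also given from a fit with the index as a covariate, an alternative chosen after seeing the data. In bulk RNA, a change in the number of cells that express a gene and a change in RNA per cell cannot be told apart.

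CEMIP, which binds hyaluronan and is required for its depolymerization in several cell types, lies on chromosome 15 at 80779343 to 80951776 on the plus strand (GRCh38, GENCODE 29; identifier ENSG00000103888.17). HAS3, a hyaluronan synthase of the plasma membrane, lies on chromosome 16 at 69105564 to 69118719 on the plus strand (ENSG00000103044.11). CEMIP, HAS3 and CEMIP2 were higher in every library at 1000 µM than in every control library, as were 25.9% of all genes tested. For CEMIP2 all 250 bases before its RefSeq start lie in the gene's own exons, which leaves no stretch outside them. The stretches upstream of the RefSeq start sites are therefore given for CEMIP and HAS3 only. Both come from RefSeq on GRCh38.p14 and read 5′ to 3′ along the plus strand, CEMIP from chr15:80779120-80779342, where a GENCODE exon begins, and HAS3 from chr16:69107290-69107539, which lies inside the span of longer HAS3 transcripts. Capitals mark matches to GCGTG, the core of the element bound by the aryl hydrocarbon receptor, and to CGTCA, which is TGACG on the other strand, the first part of the cAMP response element TGACGTCA.
CEMIP: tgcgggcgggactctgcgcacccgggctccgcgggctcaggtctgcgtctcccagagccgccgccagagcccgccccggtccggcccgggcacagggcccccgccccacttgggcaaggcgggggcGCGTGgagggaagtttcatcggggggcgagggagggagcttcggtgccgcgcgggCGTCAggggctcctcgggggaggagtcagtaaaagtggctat
HAS3: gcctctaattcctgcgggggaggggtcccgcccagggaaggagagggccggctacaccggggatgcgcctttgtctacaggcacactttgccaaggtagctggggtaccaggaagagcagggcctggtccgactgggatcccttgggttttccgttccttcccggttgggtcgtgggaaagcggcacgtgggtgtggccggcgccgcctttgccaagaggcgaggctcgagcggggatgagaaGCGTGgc

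In the CEMIP stretch GCGTG began 124 bases before the RefSeq start and CGTCA 69 bases before it, and in HAS3 GCGTG began 7 bases before the start. Searched on both strands in the 250 bases before each start, GCGTG was found in 4 of the 8 windows matched to 7 of the members (CEMIP, HAS3, HYAL1 and HYAL2) and in 32.2% of 35116 windows of all genes. TGACG was found in windows of CEMIP, CEMIP2 and HYAL3, and in 21.2% of all windows. The whole element TGACGTCA, found in 1.65% of all windows, and the AP-1 site TGANTCA, found in 6.57%, were in none of the 8. The TATA box letters TATAAA, searched on the gene's strand and found in 6.80% of all windows, occurred in CEMIP alone among these members, beginning 30 bases before the start, so that its last letters lie beyond the printed stretch. These are matches of letters and do not show binding.

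CEMIP was lowest without caffeine, higher at every dose tested, and by far highest at 1000 µM. In the 3 control libraries CEMIP stood at 47.5, 55.7 and 51.1 CPM, a mean of 51.4 ± 4.09 (SD, n = 3). At 0.01 µM the 3 libraries held 73.3, 79.5 and 73.9 CPM (75.6 ± 3.44), all above the controls. With 0.1 µM CEMIP reached 83.9, 90.6 and 68.0 CPM (80.9 ± 11.6), and with 1 µM 79.9, 82.7 and 73.0 CPM (78.5 ± 5.01). These 3 lowest doses overlapped each other, so the level did not separate between 0.01 and 1 µM although all 9 libraries lay above the controls.

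The CEMIP libraries at 10 µM held 90.6, 95.2 and 95.1 CPM (93.7 ± 2.61), above those at 1 µM. At 100 µM they held 94.5, 106 and 121 CPM (107 ± 13.1), which overlapped with 10 µM. At 1000 µM they held 290, 296 and 293 CPM (293 ± 3.11), above every library at any other dose. The largest step between neighbouring doses was thus the last one, a 2.74-fold rise in mean CPM from 100 to 1000 µM, against 1.47-fold from 0 to 0.01 µM and 0.971- to 1.19-fold for the steps between.

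**Figure D1:**
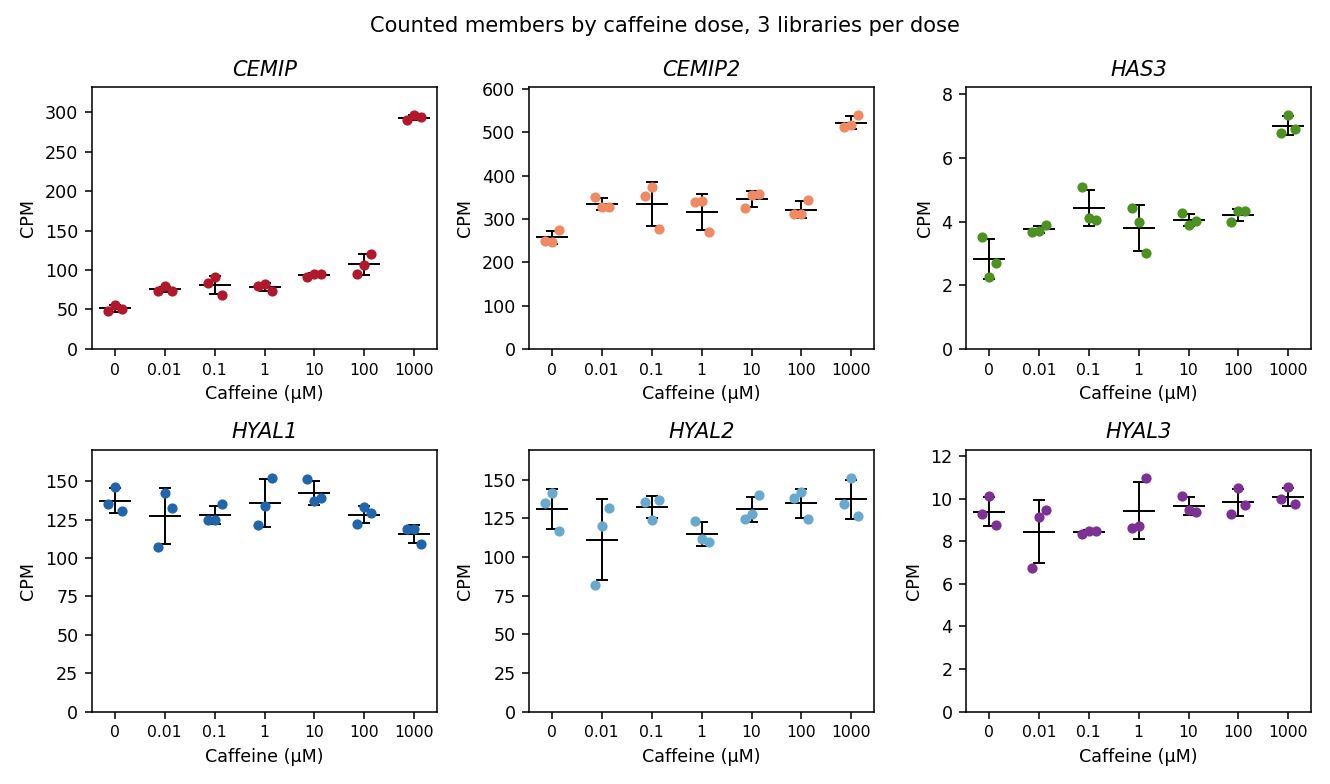
Level of each of the 6 counted genes (CPM, linear axes from 0) by caffeine dose (µM); points are single libraries, the horizontal line is the mean and the bars are ± 1 SD (n = 3). CEMIP climbs from 51.4 to 293 CPM, CEMIP2 and HAS3 are also highest at 1000 µM, and HYAL1, HYAL2 and HYAL3 range over 107 to 152, 82.0 to 151 and 6.76 to 11.0 CPM.

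Against 0 µM the log2 fold change of CEMIP was 0.56 (0.01 µM), 0.65 (0.1 µM) and 0.61 (1 µM), each with an SE of 0.104. It was 0.87 ± 0.104 (SE) for 10 µM, 1.06 ± 0.104 for 100 µM and 2.51 ± 0.109 for 1000 µM, the last being 5.70-fold. These comparisons share the same 3 control libraries. Of all genes tested, the share with all 3 libraries above all 3 controls, as CEMIP had at each dose, was 15.7% (0.01 µM), 10.1% (0.1 µM), 11.1% (1 µM), 22.4% (10 µM), 21.0% (100 µM) and 25.9% (1000 µM), and 18.5% had all 3 libraries at 1000 µM above the 3 at 100 µM. The share with the 3 libraries at 1000 µM above those of every other dose was not computed. By its change at 1000 µM CEMIP ranked 79 of 17468 genes tested, and 22 of the 13838 with a mean of at least 1 CPM.

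Per dose step, the rank of the dose from 0 to 6, CEMIP rose by 0.33 ± 0.0384 on the log2 scale, and by 0.17 when the 3 libraries at 1000 µM were left out. With the length index as a covariate the slope of CEMIP was 0.24, and its change was 0.32 (0.01 µM), 0.42 (0.1 µM), 0.39 (1 µM), 0.57 (10 µM), 0.86 (100 µM) and 2.10 (1000 µM), and 1.25 from 100 to 1000 µM in place of 1.45 ± 0.105. The CEMIP exons share 224 bases, 2.94% of their length, with MESD on the opposite strand. Since the use of strand in the counting is not given, reads there could be counted for either gene. MESD itself held 139 ± 3.48 CPM in the controls and 116 ± 9.21 CPM in the 1000 µM libraries.

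CEMIP2, a cell-surface protein related to CEMIP that has been described as a hyaluronidase, lies on chromosome 9 at 71683366 to 71816690 on the minus strand (ENSG00000135048.14). Its level was 2.03-fold higher at 1000 µM than without caffeine, and the doses from 0.01 to 100 µM overlapped each other. The control libraries held 250, 248 and 274 CPM (258 ± 14.6, SD, n = 3) of CEMIP2. With 0.01 µM they held 351, 327 and 327 CPM, with 0.1 µM 352, 373 and 277 CPM, and with 1 µM 338, 341 and 269 CPM. At 1 µM replicate 3 fell among the controls, and at 0.1 µM replicate 3 lay just above the highest of them.

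CEMIP2 held 326, 356 and 359 CPM with 10 µM (347 ± 18.4), and 310, 311 and 344 CPM with 100 µM (322 ± 19.2). At 1000 µM it stood at 513, 516 and 540 CPM (523 ± 14.6). Every library at 10, 100 and 1000 µM was above every control, as for 22.4%, 21.0% and 25.9% of all genes tested. The 3 libraries at 1000 µM were also above all 18 others, and the share of all genes for which this held was not computed.

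The test, edgeR's quasi-likelihood test in one fit over the 7 groups with Benjamini-Hochberg adjustment over all 17468 genes, placed the CEMIP2 rise past the 0.05 threshold at 3 doses. At 1000 µM the log2 fold change was 1.02 ± 0.107 (SE; edgeR adjusted p = 1.76e-06, higher in 3 of 3 libraries). At 10 µM it was 0.43 ± 0.106 (edgeR adjusted p = 0.0103), and at 0.01 µM it was 0.38 ± 0.106 (edgeR adjusted p = 0.0475). At 0.1, 1 and 100 µM the CEMIP2 changes were 0.38, 0.30 and 0.32 and did not pass (edgeR adjusted p = 0.126, 0.121 and 0.0733). From 100 to 1000 µM CEMIP2 rose by 0.70 ± 0.107 (edgeR adjusted p = 0.000262), and per dose step by 0.11 ± 0.0229 (edgeR adjusted p = 0.00131).

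The highest CEMIP2 library coincided with the highest length index at 7 of 7 doses, against 3 of 7 for CEMIP and 0 of 7 for HAS3. The lowest library coincided with the lowest index at 4 of 7 doses for CEMIP2, for CEMIP and for HAS3 alike. With the index as a covariate the CEMIP2 change at 1000 µM was 0.47 (edgeR adjusted p = 0.0237). That at 10 µM was 0.03 (edgeR adjusted p = 0.864), and the slope was 0.03 (edgeR adjusted p = 0.279). In the same fit CEMIP2 still rose by 0.42 from 100 to 1000 µM (edgeR adjusted p = 0.00338) and passed among the 7 groups (edgeR adjusted p = 0.0028). Its changes of 0.05 with 0.01 µM, 0.06 with 0.1 µM, -0.01 with 1 µM and 0.05 with 100 µM did not pass (edgeR adjusted p = 0.903, 0.985, 0.977 and 0.745). Without the libraries at 1000 µM the CEMIP2 slope was 0.05 (edgeR adjusted p = 0.214), and without control replicate 1 the change at 10 µM no longer passed (edgeR adjusted p = 0.052). Its call at 0.01 µM was lost with the index, with a replicate block, with scaling by library totals, in a fit of only the 6 libraries compared, and without control replicate 1 or 2 or replicate 1 or 2 at that dose.

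**Figure D2:**
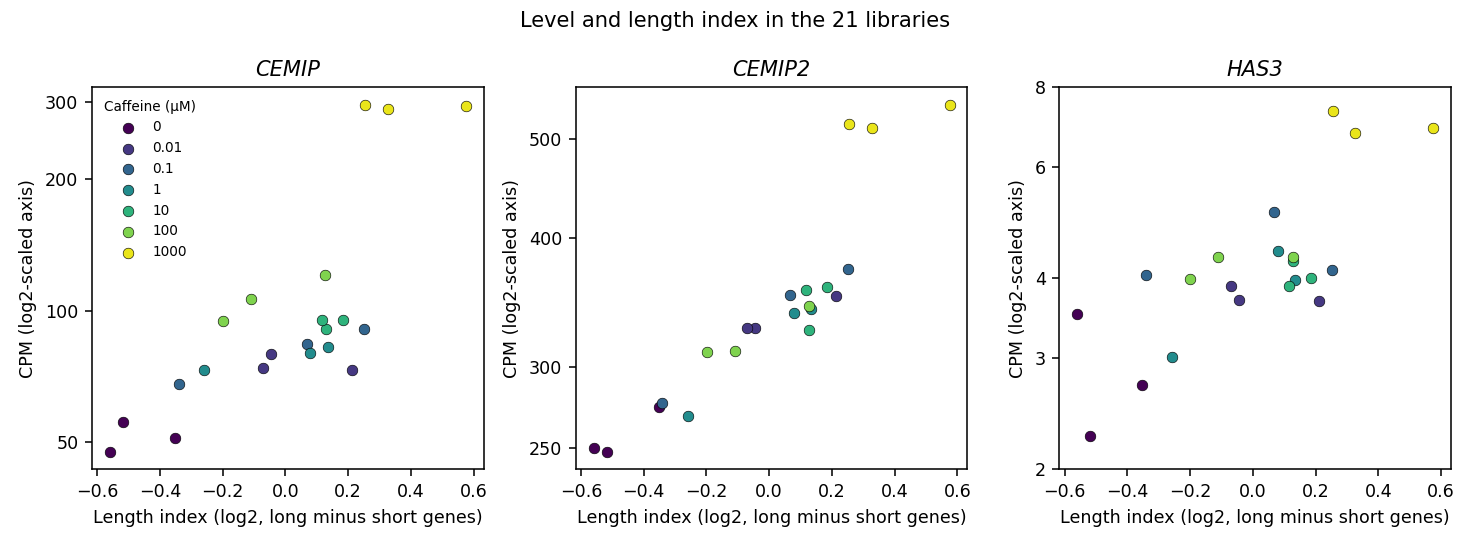
Level (CPM, log2-scaled axes) of CEMIP, CEMIP2 and HAS3 against the length index of each of the 21 libraries (log2, long minus short genes), coloured by caffeine dose. The controls lie at the left (-0.56 to -0.35) and the 1000 µM libraries at the right (0.25 to 0.58). At 1000 µM each gene is above all libraries of other doses, a separation not counted over all genes.

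HAS3 was the only hyaluronan synthase gene counted in more than traces, and in the controls it was the lowest of the 6 counted members. The controls held 3.51, 2.25 and 2.71 CPM of HAS3 (2.83 ± 0.637, SD, n = 3). With 0.01 µM they held 3.68, 3.70 and 3.89 CPM, with 0.1 µM 5.08, 4.13 and 4.05 CPM, and with 1 µM 4.41, 3.98 and 3.01 CPM. Control replicate 1 was well above the other two controls, and only the lowest library at 1 µM fell below it.

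HAS3 reached 4.26, 3.89 and 4.01 CPM with 10 µM (4.05 ± 0.189), and 3.99, 4.32 and 4.32 CPM with 100 µM (4.21 ± 0.188). At 1000 µM it reached 6.78, 7.34 and 6.91 CPM (7.01 ± 0.293). The libraries at 10 and 100 µM were close to those of the 3 lowest doses, and those at 1000 µM were above all the rest. For 25.9% of all genes tested the 3 libraries at 1000 µM were above the 3 controls. The share with all 3 above every other dose was not computed. Behind the HAS3 levels are 70 to 298 counts per library.

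HAS3 rose by 1.31 ± 0.154 (SE) on the log2 scale at 1000 µM, 2.48-fold (edgeR adjusted p = 6.09e-06, higher in 3 of 3 libraries). It rose by 0.74 ± 0.150 from 100 to 1000 µM (edgeR adjusted p = 0.00308) and by 0.15 ± 0.0287 per dose step (edgeR adjusted p = 0.000742). At 10 µM the change was 0.52 ± 0.156 (edgeR adjusted p = 0.0247) and at 100 µM 0.58 ± 0.156 (edgeR adjusted p = 0.0393). At 0.01, 0.1 and 1 µM the HAS3 changes of 0.41, 0.65 and 0.43 did not pass (edgeR adjusted p = 0.11, 0.114 and 0.125).

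The HAS3 call at 100 µM was lost in all 6 fits that left out 1 of the 6 libraries compared (highest edgeR adjusted p = 0.183), and the call at 10 µM in 4 of 6 (highest edgeR adjusted p = 0.122). With the length index as a covariate HAS3 changed by 1.10 at 1000 µM (edgeR adjusted p = 0.0341) and passed among the 7 groups (edgeR adjusted p = 0.0419). Its slope of 0.09 (edgeR adjusted p = 0.111) and its change from 100 to 1000 µM of 0.63 (edgeR adjusted p = 0.0679) did not pass. HAS3 shares 365 exon bases, 6.90% of its length, with CHTF8 on the opposite strand, which had 46569 counts over the 21 libraries against 3012 of HAS3. The use of strand in the counting is not given, so reads in the shared bases could be counted for either gene. CHTF8 changed by 0.03 at 1000 µM (edgeR adjusted p = 0.76).

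The 3 hyaluronidase genes HYAL1, HYAL2 and HYAL3 sit side by side on the minus strand of chromosome 3, and none of them passed the test at any dose. HYAL1 (50299889 to 50312381, ENSG00000114378.17) encodes a lysosomal hyaluronidase and HYAL2 (50317790 to 50322906, ENSG00000068001.14) one that is anchored at the cell surface. HYAL3 (50292831 to 50299468, ENSG00000186792.17) encodes a related protein. Over all doses their libraries ranged from 107 to 152 CPM for HYAL1, from 82.0 to 151 CPM for HYAL2 and from 6.76 to 11.0 CPM for HYAL3.

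HYAL1 was at 135, 146 and 130 CPM in the controls (137 ± 8.14, SD, n = 3) and at 119, 119 and 109 CPM at 1000 µM (116 ± 5.74). All 3 libraries at 1000 µM were thus below all 3 controls, as they were for 27.3% of all genes tested. The log2 fold change was -0.25 ± 0.101 (SE) and missed the threshold (edgeR adjusted p = 0.0587). It passed when libraries were scaled by their totals alone (edgeR adjusted p = 0.0407) and turned to 0.10 with the length index as a covariate (edgeR adjusted p = 0.799).

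HYAL2 was at 135, 141 and 117 CPM in the controls (131 ± 12.8) and at 134, 151 and 127 CPM at 1000 µM (137 ± 12.6), so the groups overlapped. Its change was 0.07 ± 0.132 (edgeR adjusted p = 0.709). Its lowest library was replicate 1 at 0.01 µM, which was also the lowest for HYAL1 and HYAL3. HYAL3 was at 9.30, 10.1 and 8.77 CPM in the controls (9.39 ± 0.672) and at 10.0, 10.6 and 9.73 CPM at 1000 µM (10.1 ± 0.424), again with overlap. Its change was 0.11 ± 0.119 (edgeR adjusted p = 0.504), and its slope of 0.03 per step (edgeR adjusted p = 0.131) became 0.07 with the index as a covariate (edgeR adjusted p = 0.0484).

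HYAL3 shares 248 exon bases with NAA80 and 43 with IFRD2, and HYAL2 shares 509 with TUSC2, all on the same strand, so reads there could be counted for either gene. At 1000 µM IFRD2 fell by 0.59 (edgeR adjusted p = 0.00242) and RASSF1, a tumour suppressor gene of the same region, rose by 0.86 (edgeR adjusted p = 0.000262). NAA80, TUSC2 and LSMEM2 changed by 0.25, -0.24 and -0.32 with no call (edgeR adjusted p = 0.533, 0.18 and 0.642).

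**Figure D3:**
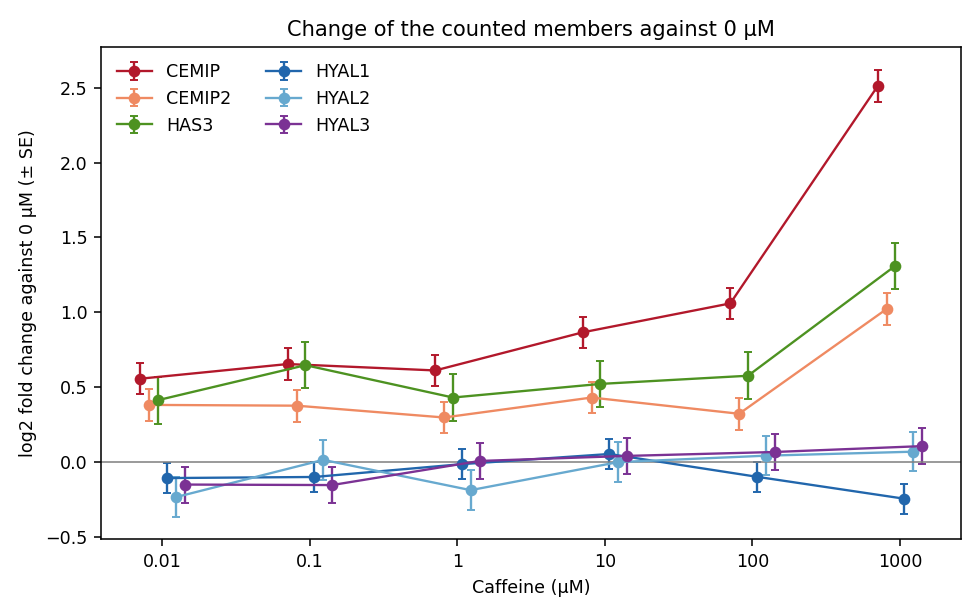
Log2 fold change against 0 µM (± SE) of the 6 counted genes at each caffeine dose (µM, evenly spaced steps), all against the same 3 control libraries. CEMIP reaches 2.51, HAS3 1.31 and CEMIP2 1.02 at 1000 µM, whereas HYAL1, HYAL2 and HYAL3 lie at -0.25, 0.07 and 0.11.

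The receptor gene CD44 and the synthase gene HAS2 were not detectable at this depth. CD44 (chromosome 11, 35138870 to 35232402, plus strand) had a single count in all 21 libraries together, in replicate 1 at 1 µM. HAS2, like its antisense transcript HAS2-AS1, had 0 counts in all 21, which allows up to 0.00434 CPM over their 691709801 counts. Neither passed the filter on low counts, so 6 of the 8 genes were tested. HAS1 had at most 2 counts and HYAL4 at most 3 counts in any library.

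The number of members called was read against the share of all genes called. Of the 5 tested members other than CEMIP, 2 passed at 1000 µM (CEMIP2 and HAS3), close to the 41.2% of all genes that passed in either direction. Both were higher and 0 lower, where 20.6% of all genes were higher and 20.6% lower. The same 2 members were higher at 10 µM, where 22.0% of genes passed and 11.3% were higher. HAS3 alone was higher at 100 µM (6.02% passed, 2.74% higher), and CEMIP2 alone at 0.01 µM (4.95% passed, 2.87% higher). None passed with 0.1 or 1 µM, where edgeR called 0% of genes. At those doses 2651 and 3980 genes had an unadjusted p under 0.05, and DESeq2 called 519 and 1379. CEMIP2 and HAS3 also passed among the 7 groups (edgeR adjusted p = 6.33e-05 and 0.000208), where 28.1% of all genes passed. Both rose along the dose step, where 29.0% of genes passed and 14.5% rose, and from 100 to 1000 µM, where 14.7% passed and 8.15% were higher.

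Compared per kilobase of merged exons, the order of the 6 counted genes changed between 0 and 1000 µM. Without caffeine HYAL1 was highest at 43.8 ± 2.60 CPM per kb (SD, n = 3), followed by HYAL2 at 28.8 ± 2.81 and CEMIP2 at 26.8 ± 1.52, which did not differ beyond their spread. CEMIP followed at 6.75 ± 0.537 CPM per kb, HYAL3 at 4.63 ± 0.331 and HAS3 at 0.534 ± 0.120. At 1000 µM CEMIP2 was highest at 54.3 ± 1.51 CPM per kb, and CEMIP at 38.5 ± 0.408 stood beside HYAL1 at 37.0 ± 1.83, within its spread. HYAL2 at 30.2 ± 2.78, HYAL3 at 4.98 ± 0.209 and HAS3 at 1.33 ± 0.0554 CPM per kb came below them. With exon lengths from GENCODE's basic transcripts only, chosen after seeing the data, CEMIP2 was above HYAL2 without caffeine (38.7 against 31.4 CPM per kb). By those lengths CEMIP was at 39.7 and HYAL1 at 37.3 CPM per kb at 1000 µM, a wider gap. Both comparisons thus depend on the transcripts counted.

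**Figure D4:**
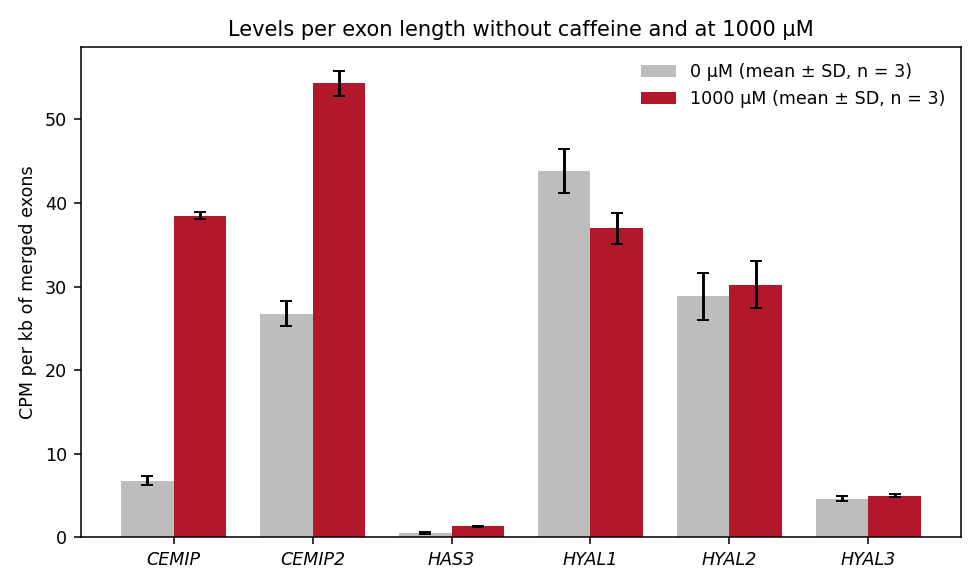
Level per kilobase of merged exons (CPM per kb, axis from 0) of the 6 counted genes without caffeine (grey) and at 1000 µM (red); bars are means and lines ± 1 SD (n = 3). CEMIP goes from 6.75 to 38.5 and stands beside HYAL1 at 37.0, while HYAL2 is at 28.8 and 30.2 and HYAL3 at 4.63 and 4.98.

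The wider hyaluronan list holds 46 genes by role, of which 42 had a row and 26 were tested, 25 of them other than CEMIP. At 1000 µM 10 of the 25 passed, where 41.2% of all genes passed, so the share called in either direction was close to that of all genes. By direction 9 of the 25 were higher and 1 lower, against 20.6% of all genes each way. The direction of the list as a whole was not tested. The median log2 fold change of the 25 was 0.11 against -0.03 for all genes tested. At 10 µM 8 passed, 6 higher and 2 lower, where 22.0% of all genes passed and 11.3% were higher. With 0.01 µM 3 were higher (4.95% passed, 2.87% higher), and with 100 µM 2 were higher (6.02% passed, 2.74% higher). At 0.1 and 1 µM 0 passed in edgeR, where 5 and 8 of the 25 had an unadjusted p under 0.05 and DESeq2 called 4 and 5. With the length index as a covariate 2 of the 25 remained past the threshold at 1000 µM, HAS3 and CEMIP2, where 684 of all genes did, and 0 at 10 µM, where 0 of all genes did. The dose groups and the index moved together, so what each contributes cannot be told apart.

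Among hyaluronan-binding proteins at 1000 µM, 5 of the 7 tested genes were higher, against 20.6% of all genes, and none of the 5 passed with the length index as a covariate (edgeR adjusted p from 0.0575 to 0.423). VCAN (versican, a large matrix proteoglycan) was at 24.5, 25.1 and 25.2 CPM in the controls. At 1000 µM it was at 53.1, 53.5 and 57.9 CPM, all above the controls, as for 25.9% of all genes tested. Its log2 fold change was 1.13 ± 0.159 (SE; edgeR adjusted p = 3.22e-05), and 0.22 with the index as a covariate (edgeR adjusted p = 0.423). Like CEMIP2, VCAN had its highest library where the length index was highest at 7 of 7 doses, and its lowest where the index was lowest at 4 of 7. BCAN (brevican, a related proteoglycan) rose by 1.21 ± 0.288 (edgeR adjusted p = 0.00277), from 14.7 ± 3.64 to 34.0 ± 5.65 CPM. It had already risen by 1.43 at 10 µM (edgeR adjusted p = 0.00469), and it overlaps 2 antisense genes, of which AL365181.3 had 49597 counts against 20009 of BCAN.

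Of the 5 listed heavy chains of the inter-alpha-trypsin inhibitors, plasma proteins that can be attached to hyaluronan, 3 were tested and all 3 were higher by small amounts at 1000 µM. ITIH1, with at most 12 counts in any library, and ITIH4, with at most 4, were not tested. ITIH2 rose by 0.28 (edgeR adjusted p = 0.00102), ITIH3 by 0.31 (edgeR adjusted p = 0.0129) and ITIH5 by 0.32 (edgeR adjusted p = 0.00869). AMBP, which encodes their light chain bikunin, changed by -0.09 (edgeR adjusted p = 0.582). ITIH2 was the most abundant gene of the list, with 1434 to 1796 CPM per library.

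In precursor synthesis 1 of the 7 tested genes was higher and 1 lower at 1000 µM, against 20.6% of all genes in each direction. UGDH, which makes the UDP-glucuronate used by the synthases, was at 320, 297 and 333 CPM in the controls. At 1000 µM it was at 474, 535 and 561 CPM, all above the controls, as for 25.9% of all genes tested. It rose by 0.72 ± 0.0994 (SE; edgeR adjusted p = 2.71e-05), and by 0.59 from 100 to 1000 µM (edgeR adjusted p = 0.000616). With the index as a covariate the UGDH change against 0 µM was 0.44 (edgeR adjusted p = 0.154), while its change of 0.45 from 100 to 1000 µM passed (edgeR adjusted p = 0.0271). In the same fit UGDH passed among the 7 groups (edgeR adjusted p = 0.000823). PGM1, which interconverts glucose phosphates, fell by 0.32 (edgeR adjusted p = 0.00592). UAP1, which makes UDP-N-acetylglucosamine, was lower at 10 µM (-0.36, edgeR adjusted p = 0.0344) and changed by -0.12 at 1000 µM (edgeR adjusted p = 0.431).

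Of the receptors, 3 of 6 were tested. LYVE1, the lymphatic endothelial receptor, was counted 4 to 8 times per control library and 16 to 25 times at 1000 µM, a change of 1.46 ± 0.518 (edgeR adjusted p = 0.0312) that was lost in 4 of 6 fits that left out 1 library (highest edgeR adjusted p = 0.118). HMMR, a receptor that also binds the mitotic spindle, changed by 0.24 (edgeR adjusted p = 0.0954), and STAB1, a scavenger receptor, by -0.68 (edgeR adjusted p = 0.143). Of the lysosomal exoglycosidase genes, GUSB changed by -0.10 and HEXA by -0.13 at 1000 µM with no call (edgeR adjusted p = 0.406 and 0.393). HEXA, a subunit of beta-hexosaminidase, was lower at 10 µM (-0.38, edgeR adjusted p = 0.0284).

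**Figure D5:**
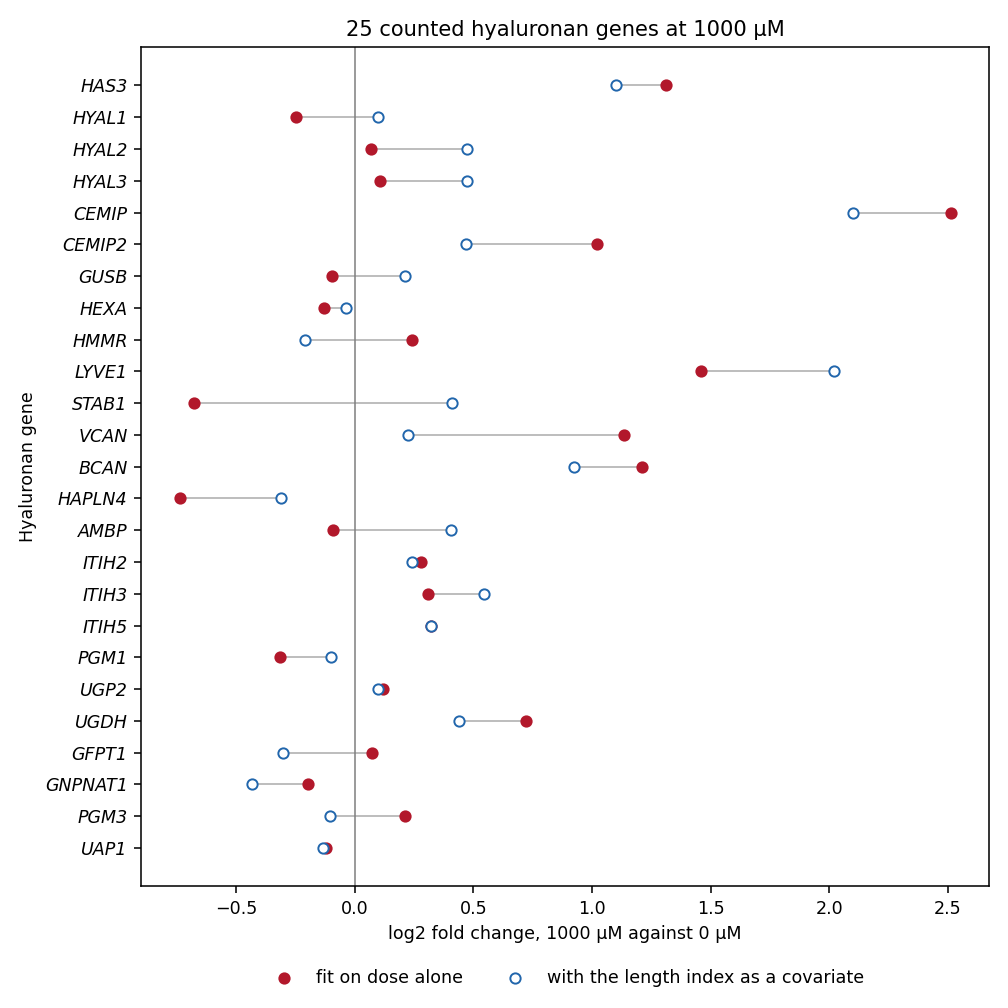
Log2 fold change at 1000 µM against 0 µM of 25 of the 26 tested hyaluronan genes, ordered by role; filled points are from the fit on dose alone and open points from the fit with the length index as a covariate. CEMIP goes from 2.51 to 2.10, CEMIP2 from 1.02 to 0.47, VCAN from 1.13 to 0.22 and HYAL1 from -0.25 to 0.10.

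Over the 21 libraries the gene whose log2 CPM was most like that of CEMIP, among 13068 genes with a mean of at least 1 CPM, was ERBB3, which encodes a receptor tyrosine kinase, with a Pearson r of 0.991. Next came EPS8, HSPA12A, IL6R and ANTXR2 with r of 0.979, 0.978, 0.978 and 0.976. ERBB3 held 206 ± 3.45 CPM in the controls, 273 ± 13.4 CPM with 100 µM and 468 ± 4.85 CPM with 1000 µM of caffeine. The genes share the libraries, their depth, the length index and the jump at 1000 µM, so these values are descriptions. Over the 18 libraries without 1000 µM ERBB3 was again first, with an r of 0.954, and 3 of the 5 genes were the same, as were 3 by Spearman's rho over the 21 libraries. By the means of the 7 groups only IL6R was shared and AP3M2 came first, with an r of 0.999.

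CEMIP2 had an r of 0.930 with CEMIP and ranked 94, and HAS3 had 0.889 and ranked 267. HYAL1, HYAL2 and HYAL3 had -0.512, 0.268 and 0.359. The lowest values were those of MAB21L4 (-0.965), ABHD15 (-0.958) and DDB2 (-0.957), a DNA repair gene that went from 66.1 ± 2.04 to 40.7 ± 3.47 CPM between 0 and 1000 µM.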

How the data were processed

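The values the authors deposited are raw read counts, whole numbers for each gene and library that were not normalized. HISAT2, DESeq2 and the build GRCh38 are named in the submitters' processing notes, while the counting program, the annotation and the use of strand are not given in the sources used here. The series design text gives the controls a different compound name, and the sample labels (caffeine, 0 µM, untreated) were followed. The table has 42 per-sample columns, of which 21 matched the samples' labels and the other 21 were not used. Of 37637 features, 32937 carried Ensembl IDs, 32264 of them with a symbol in the reference tables, and 4700 were unannotated.

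Counts were fitted with edgeR 4.0.16 (R 4.3.3; glmQLFit, glmQLFTest, TMM scaling, filterByExpr with min.count 10). The 21 libraries entered a single fit with 7 groups (14 residual degrees of freedom, 17468 genes tested), with a common biological coefficient of variation of 0.163. Each dose was compared with 0 µM and 1000 with 100 µM, all 7 groups were tested jointly, and a trend was fitted on the rank of the dose. P-values were adjusted by Benjamini-Hochberg over all genes, with a threshold of 0.05. Standard errors were derived as the size of the log2 change over √F. The script was tested on simulated counts.

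Genes named are the 8 members and list genes past the threshold (up to 5 per role and comparison, largest change first). Also named are neighbours of HYAL1, HYAL2 and HYAL3, and the 5 genes most like CEMIP by Pearson r on log2 CPM (prior count 2). Of the neighbours, NAA80, IFRD2 and TUSC2 share exon bases with a member, and RASSF1 and LSMEM2 do not. Others were named after their values were seen. AMBP, HMMR, STAB1 and GUSB complete their roles, GFPT1 and PGM3 changed sign with the length index, and MESD and CHTF8 overlap members. PDGFRB, CD68 and CD14 are cell type markers that exceeded 9 counts. Also given, for contrast, are the 3 genes least like CEMIP. Of the tested list genes, 1 is counted but its values are not reported here. Members and lists were chosen with earlier results of these data known. SPAM1, ACAN, HAPLN1 and TNFAIP6 were not analysed here. The length index used 2612 genes with list genes left out. Exon lengths and gene positions are from GENCODE 29 and upstream sequences from RefSeq on GRCh38.p14.

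Replicate pairs within a dose differed by a chi-square per gene of 5.18 to 195, so each library counted as 1 sample. Alternatives were DESeq2 1.42.0, other scalings and filters, a replicate block, other sets of libraries, leaving out each library, and the length index as a covariate.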

Additional observations from a re-analysis of the deposited data

How the results depend on the processing

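Of the 25 hyaluronan genes tested beside CEMIP, the number past the threshold at 1000 µM was 10 with edgeR and 10 with DESeq2, which called 7204 and 7352 of all 17468 genes. Counts elsewhere moved more. DESeq2 gave 5 where edgeR gave 3 (0.01 µM), 4 where it gave 0 (0.1 µM) and 5 where it gave 0 (1 µM). It gave 7 where edgeR gave 2 (100 µM), and 11 among the 7 groups where edgeR gave 7. Of all genes DESeq2 called 2119 (0.01 µM), 519 (0.1 µM), 1379 (1 µM) and 2012 (100 µM). Scaling by library totals gave 0 at 0.01 µM and 1 at 100 µM. Testing without a filter on low counts gave 1 at 1 µM, 4 at 10 µM and 1 at 100 µM. Fits of only the 6 libraries compared gave 0 at 0.01 µM and 7 at 100 µM. For the slope, where 9 passed, 2 passed without the libraries at 1000 µM and 4 in the treated libraries alone. For these other scalings, filters and sets of libraries, and for DESeq2 among the 7 groups, the share over all genes is not given. With the length index as a covariate, chosen after seeing the data, 0 passed at 0.01, 10 and 100 µM, where 0, 0 and 19 of all genes did. At 1000 µM 2 passed, where 684 of all genes did. Along the slope 1 passed (3.75% of all genes), and from 100 to 1000 µM 2 passed (4.99% of all genes). Among the 7 groups 5 passed with the index (HAS3, CEMIP2, HMMR, ITIH3 and UGDH), where 10.1% of all genes did. In that fit HYAL1 turned to 0.10 at 1000 µM and its slope to 0.0073, HMMR turned to -0.21 and MESD to 0.062 at 1000 µM. At the same dose STAB1 turned to 0.41, AMBP to 0.41, GUSB to 0.21, GFPT1 from 0.07 to -0.30 and PGM3 from 0.21 to -0.10. STAB1, AMBP, GUSB, GFPT1 and PGM3 were not called at 1000 µM in either fit. The HYAL1 slope was 0.0022 without the libraries at 1000 µM. The cause of the other changes was not tested.

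With the replicate number as a block, 0 of the list genes passed at 0.01 and 100 µM, 10 at 1000 µM and 8 along the slope. The shares over all genes with the block are not given. The HAS3 call at 100 µM was lost (edgeR adjusted p = 0.0509), and no other call on a member at 10, 100 or 1000 µM changed. Libraries of the same number did not deviate together: the median correlation of their deviations was 0.0199 over 63 pairs, with 11 over 0.1, and 5 of 21 libraries correlated best with their own number, so the numbers were not taken to pair samples.

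With 1 library left out at a time, the number of genes ranged from 0 to 3 (0.01 µM), 0 to 3 (0.1 µM), 0 to 2 (1 µM), 4 to 8 (10 µM), 0 to 1 (100 µM) and 9 to 11 (1000 µM), with 4 to 10 among the 7 groups, 7 to 11 along the slope and 4 to 5 from 100 to 1000 µM. The count at 0.01 µM was 0 without control replicate 1 or 2 or without replicate 1 or 2 at that dose. At 0.1 µM it was 3 without replicate 3, and at 1 µM 2 without replicate 1. At 10 µM it was 4 without control replicate 1 and 5 without control replicate 2, or without replicate 1 or 2 at that dose. At 100 µM each of the 6 libraries lowered it, and among the 7 groups it was 4 without control replicate 1. These are counts of list genes, and the shares over all genes in these fits are not given. The CEMIP change at 1000 µM stayed between 2.46 and 2.57. Counts per library were low for HAS3 (70 to 298), LYVE1 (1 to 25), STAB1 (6 to 22) and HAPLN4 (0 to 52), and nothing below the limit of 3 counts could be seen for CD44 and HAS2.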
